A study of Homo sapiens with 5 samples.

Results

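Small nucleolar RNA (snoRNA) host gene lncRNAs were examined in 5 libraries of A549, a lung adenocarcinoma cell line of human origin. The members were taken by gene symbol alone: every gene named SNHG followed by a number, plus GAS5, ZFAS1 and EPB41L4A-AS1. This gave 28 genes of the 58929 in the count tables. The libraries came from cells with stable RBMS1 knockdown (2 libraries, hairpins sh1088 and sh1196), a short hairpin (sh) control (1 library), cells with stable RBMS1 overexpression (1 library, named R1A in the labels) and a control named pCDH (1 library). RBMS1 is an RNA-binding protein. The design text calls the libraries ribosome footprint profiling, while the molecule label reads total RNA, so the values are called counts here and not ribosome occupancy. Per the labels' protocols all cells were treated with cycloheximide, a translation inhibitor, at 100 ug/mL for 15 min before lysis, and lysates for footprints were digested with RNase I for 5 min. Each line is represented by a single library, and nothing in the labels says that the hairpin libraries came from separate cultures beyond their hairpins, so the p-values reflect just the scatter among the libraries at hand.

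snoRNA host genes carry small nucleolar RNAs in their introns. The introns are spliced out and trimmed to snoRNAs, which guide chemical modification of ribosomal RNA: box C/D snoRNAs (SNORD) guide 2'-O-methylation and box H/ACA snoRNAs (SNORA) guide pseudouridylation, while relatives named SCARNA act on spliceosomal RNA in Cajal bodies. The spliced host RNA of several members, with GAS5 the classical case, is exported, engages ribosomes over short reading frames and is degraded by nonsense-mediated decay, a route that needs ongoing translation. Several hosts also begin with a terminal oligopyrimidine tract, a C followed by a run of C or T at the first transcribed base, which is best known from mRNAs of ribosomal proteins.

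The start sequences are shown first because such a tract is a feature that the choice by symbol did not use. Of the 28 members, 24 were found in the RefSeq promoter table (GRCh38.p14). In 6 of these 24 (25%) the first transcribed base was a C followed by at least 4 bases that were C or T, read on the gene's own strand, against 4.07% of the 35116 promoters in the table. Within 10 bases either side of the start such a run lay in 14 of 24 (58.3%), against 33.5% of all promoters. The 6 are printed here with 15 bases before and 30 bases from the start, 5′ to 3′, and with the run in capitals.
SNHG5: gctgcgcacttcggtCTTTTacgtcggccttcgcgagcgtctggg
ZFAS1: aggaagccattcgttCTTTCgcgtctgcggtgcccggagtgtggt
SNHG19: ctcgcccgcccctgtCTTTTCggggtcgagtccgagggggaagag
SNHG12: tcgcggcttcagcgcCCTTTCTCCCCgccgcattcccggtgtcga
SNHG4: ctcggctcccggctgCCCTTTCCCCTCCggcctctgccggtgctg
SNHG18: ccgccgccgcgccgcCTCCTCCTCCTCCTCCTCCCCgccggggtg
These lie on the minus strand for SNHG5 (chr6:85678704-85678748), SNHG19 (chr16:2155329-2155373) and SNHG12 (chr1:28581844-28581888), and on the plus strand for ZFAS1 (chr20:49278627-49278671), SNHG4 (chr5:139274086-139274130) and SNHG18 (chr5:9546185-9546229). By the transcripts of GENCODE release 29 (GRCh38), an alternative chosen after seeing the data, 39 of 277 member transcripts (14.1%) began this way, against 2.41% of 206694 transcripts in all. A match of letters is a description and not a mapped start in these cells.

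SNHG25, on which several results turn, is not in that table. GENCODE release 29 gives it 2 transcripts on the plus strand of chromosome 17, from 64145970 to 64146476, with 106 and 278 bases, and both begin with CTTTC. The shorter one is shown whole, with its first exon (26 bases) in capitals.
SNHG25: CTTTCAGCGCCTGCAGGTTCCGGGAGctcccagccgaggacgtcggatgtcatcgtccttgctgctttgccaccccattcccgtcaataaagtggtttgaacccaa

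The libraries held 10327747 to 13980843 expected counts. Their make-up differed: the share of counts on nuclear protein-coding genes was 42.2% in sh1088 and 66.0% in sh1196, against 37.7% in the sh control, and 62.3% with overexpression, against 66.35% in the pCDH control. AL355075.4 alone reached 252100 and 58550 CPM in sh1088 and sh1196, against 428600 CPM in the sh control, and 97960 CPM with overexpression, against 120800 CPM in the pCDH control (CPM are counts scaled to library size, here with edgeR's TMM factors). RPPH1, the RNA of RNase P, had 31030 and 27810 CPM in sh1088 and sh1196, against 29650 CPM in the sh control, and 25670 CPM with overexpression, but no count in the pCDH control, which stands apart there. No count for this gene does not show that the RNA was absent, since how reads were assigned between genes was not examined. The part of this make-up in the members' values was not tested. RBMS1 itself had 18.2 CPM in sh1088 and 13.5 CPM in sh1196, against 30.6 CPM in the sh control (log2 fold change -0.93, SE 0.45, edgeR adjusted p = 0.828), and 37.2 CPM with overexpression, against 24.8 CPM in the pCDH control. Epithelial keratins were present in each library (KRT8 401 to 1100 CPM), and PTPRC, CD3E and VWF had no count in any. Other epithelial markers were lower or uneven. EPCAM had 16.55 and 2.58 CPM in sh1088 and sh1196, against 5.29 CPM in the sh control, and 12.2 CPM with overexpression, against 14.85 CPM in the pCDH control. AKR1C1 had 241.5 and 59.0 CPM, against 327.5 CPM in the sh control, and 329 CPM with overexpression, against 66.4 CPM in the pCDH control. Summed over 8 markers of other cell types, 5 of them with a count, the level was 29.2 and 60.5 CPM in sh1088 and sh1196, against 23.6 CPM in the sh control, and 29.3 CPM with overexpression, against 97.8 CPM in the pCDH control, most of it from CD68, and its part in the members' values was not tested.

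Of the 28 members, 26 had a count above 0 in every library. SNHG18 had 2 counts in sh1196 and none elsewhere, and SNHG27 had none at all, so for these both groups of each comparison lay at or under the floor of 3 counts. Per length, the members stood high among lncRNAs: 11 of them were among the 20 highest of 4866 lncRNA genes with a count, by mean TPM (the authors' value per transcript length and library) over the 5 libraries. SNHG25, host of SNORD104, was highest at a mean of 531 TPM, and above 99.6% of all genes with a count. Its TPM was 308 in sh1088 and 198 in sh1196, against 1515 in the sh control, and 284 with overexpression, against 350.5 in the pCDH control. Its effective length, by which TPM divides, was only 64.2 to 70.9 nt. ZFAS1 followed with a mean of 142 TPM, SNHG29 with 129 TPM, SNHG5 with 92.9 TPM and SNHG6 with 84.0 TPM. SNHG14, the eighth member by mean CPM, was among the lower members per length, with a mean of 5.09 TPM over transcripts of up to 13074 nt. TPM values of different libraries are not directly comparable, since the median over all genes moved between libraries (by 0.78 on the log2(TPM + 1) scale for knockdown minus sh control and by -0.71 for overexpression minus pCDH control), and differences in TPM are given less that median.

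**Figure D1:**
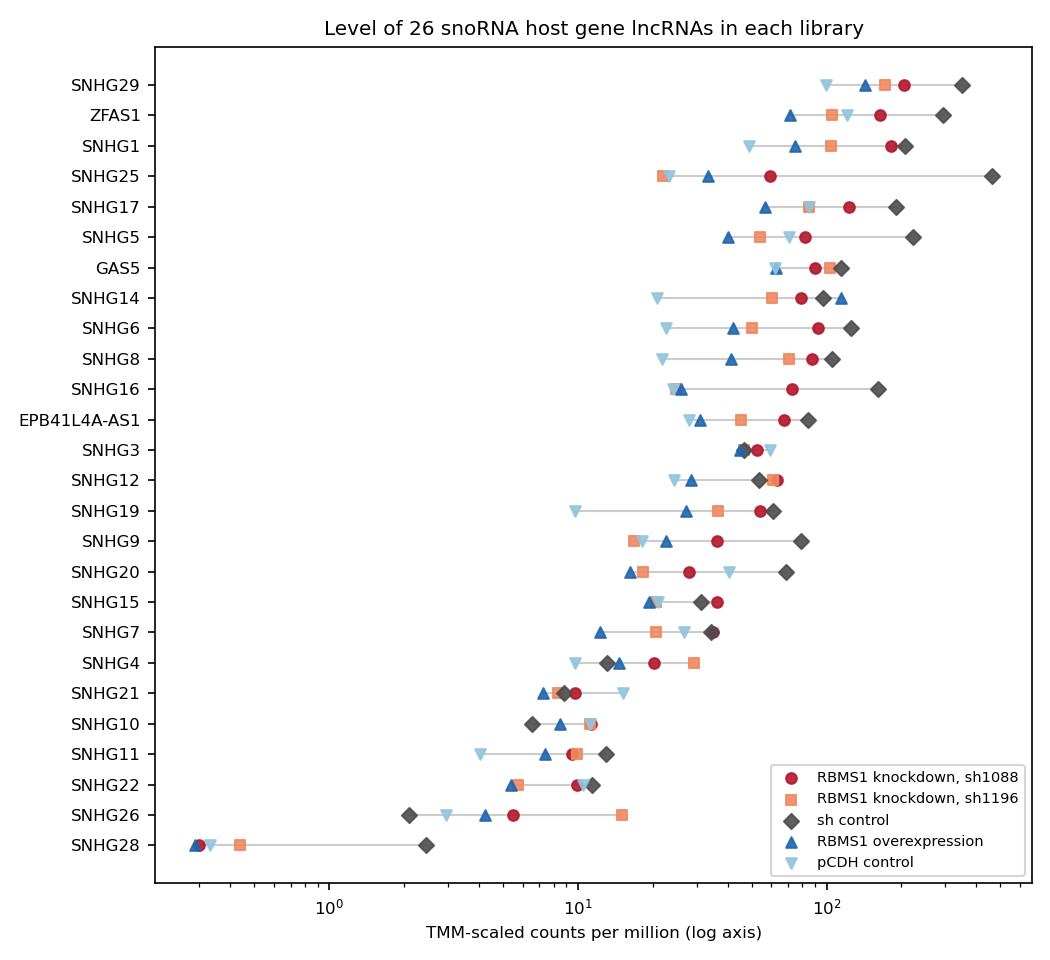
TMM-scaled CPM (log axis) of the 26 members with a count in every library, 1 row per member in order of mean CPM, 1 symbol per library. The sh control (grey diamonds) is the rightmost symbol for most rows, and SNHG25 spans from 22.1 to 463 CPM.

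Summed over the 28 members, the scaled level was 1676 CPM in sh1088 and 1197 CPM in sh1196, against 2845 CPM in the sh control, and 956 CPM with overexpression, against 881 CPM in the pCDH control. The sh control was thus above both hairpins, but the hairpins in turn were above the overexpression and pCDH libraries. As a share of all counts the members took 0.138% (95% exact binomial interval 0.136 to 0.140) in sh1088 and 0.149% (0.146 to 0.151) in sh1196, against 0.199% (0.197 to 0.202) in the sh control, and 0.108% (0.106 to 0.110) with overexpression, against 0.110% (0.108 to 0.111) in the pCDH control. Intervals here cover counting error only. Of the 25 members with a mean of at least 1 CPM, 16 had their highest level in the sh control, where 23.4% of all genes did. The lowest level lay in the pCDH control for 12 members, where 30.5% of all genes had theirs, and in the overexpression library for 9, where 15% did. SNHG25 alone made up 3.53% and 1.84% of the members' counts in sh1088 and sh1196, against 16.3% in the sh control, and 3.49% with overexpression, against 2.64% in the pCDH control. In total counts per library, fewer cells that make an RNA and less of it per cell cannot be told apart.

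**Figure D2:**
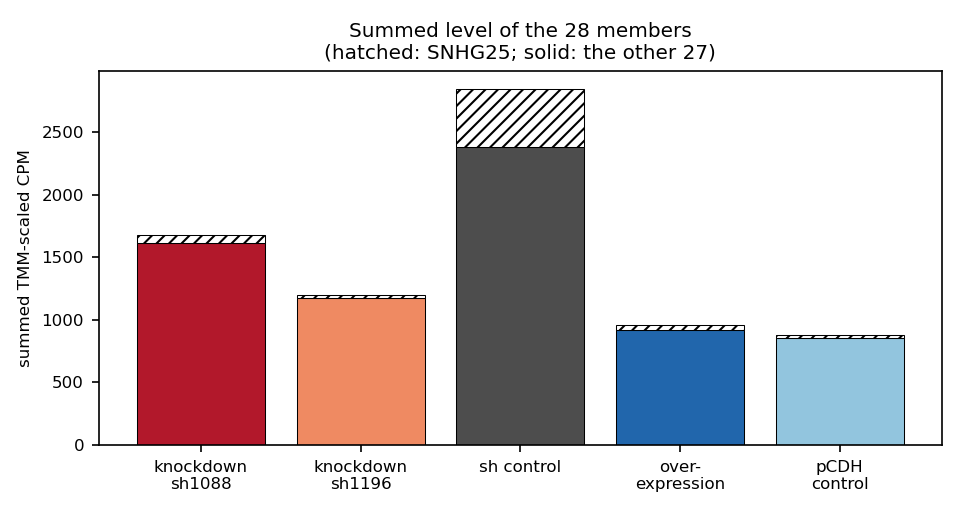
Summed TMM-scaled CPM of the 28 members in each library, with SNHG25 hatched and the other 27 solid. The bar of the sh control (2845 CPM) exceeds those of both knockdown hairpins (1676 and 1197 CPM) and of the overexpression and pCDH libraries (956 and 881 CPM), and the order stays the same without the hatched part.

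In RBMS1 knockdown against the sh control, most host lncRNAs stood lower and no member passed the test. Of 26 members tested, 0 were called by edgeR (adjusted p under 0.05), where 0% of all 14913 genes were called. The log2 fold change was below 0 for 20 members (76.9%, against 45.9% of all genes), with a median of -0.49 where the median of all genes was 0.07. At an unadjusted edgeR p under 0.05 there were 7 members, 6 of them lower, where 5.87% of all genes lay in either direction and 2.61% lower. At least 2-fold lower were 7 members, against 8.5% of all genes, and 1 was at least 2-fold higher, against 12.5%. Of 1213 other lncRNA genes tested, 280 were at least 2-fold lower and 263 at least 2-fold higher. Below 0 were 53.7% of these other lncRNA genes, with a median of -0.12. Each hairpin was also set alone against the single sh control, which both share: 18 of 26 members were below 0 with both hairpins, against 33.4% of genes, and 6 were at least 2-fold lower with both, against 4.37%. Among the other lncRNA genes 40.9% were below 0 with both hairpins and 14.4% were at least 2-fold lower with both. With both hairpins above 0 were 5 members, against 37.9% of genes, and 1 (SNHG26) was at least 2-fold higher with both, against 6.95%. sh1196 lay lower, with a median of -0.79, than sh1088, with -0.27.

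SNHG25 differed most. It had 59.1 CPM in sh1088 and 22.1 CPM in sh1196, against 463 CPM in the sh control, or -3.49 on the log2 scale (SE 0.65, edgeR adjusted p = 0.578). Both hairpin libraries lay far below the sh control. sh1196 also lay below the overexpression library, at 33.3 CPM, and just under the pCDH control, at 23.2 CPM. DESeq2 called it as the only member, where it called 0.114% of genes, as did edgeR with no filter on low counts, where 0.433% were called. SNHG28 stood at -2.60 (SE 1.07) on few reads, with 2.91 and 5.62 counts in sh1088 and sh1196, against 19.8 counts in the sh control.

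SNHG16, host of the SNORD1 family, had 72.8 CPM in sh1088 and 24.8 CPM in sh1196, against 162 CPM in the sh control (log2 fold change -1.71, SE 0.66, edgeR adjusted p = 0.828). SNHG5, host of SNORD50A and SNORD50B, had 82.2 and 53.8 CPM, against 222 CPM in the sh control (-1.69, SE 0.50, edgeR adjusted p = 0.828). ZFAS1, host of the SNORD12 family and antisense to ZNFX1, had 164 and 105 CPM, against 295 CPM in the sh control (-1.12, SE 0.52, edgeR adjusted p = 0.828). In these 3 genes both hairpins were below the control and sh1196 was the lower of the hairpins. SNHG20, a named member by its overexpression ratio, stood at -1.57 (SE 0.46). SNHG9, picked out here after its value was seen since it completes the 7 members at least 2-fold lower, stood at -1.56 (SE 0.54).

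The other abundant hosts were lower by less than 2-fold. SNHG29, host of SNORD49A, SNORD49B and SNORD65, had 206 CPM in sh1088 and 173 CPM in sh1196, against 349.7 CPM in the sh control (-0.87, SE 0.50). SNHG17, host of SNORA71 genes, had 124 and 84.6 CPM, against 190.3 CPM in the sh control (-0.85, SE 0.50). SNHG6, host of SNORD87, had 92.3 and 50.3 CPM, against 126 CPM in the sh control (-0.80, SE 0.53). In these 3 both hairpins lay below the sh control, by less than 2 SE in the joint fit. SNHG1, whose introns hold SNORD22 and SNORD25 to SNORD31, had 181 and 104 CPM, against 206 CPM in the sh control (-0.52, SE 0.54). EPB41L4A-AS1, host of SNORA13, had 67.6 and 45.4 CPM, against 84.2 CPM in the sh control (-0.56, SE 0.48). SNHG14, a long imprinted transcript over the SNORD116 and SNORD115 clusters that ends antisense to UBE3A, had 78.8 and 60.3 CPM, against 96.6 CPM in the sh control (-0.46, SE 0.47). SNHG8, host of SNORA24, had 87.7 and 70.9 CPM, against 105 CPM in the sh control (-0.39, SE 0.47). GAS5, named for its level in growth-arrested cells, had 90.1 and 103 CPM, against 114 CPM in the sh control (-0.22, SE 0.47). In scaled counts GAS5 showed the smallest difference among the 12 most abundant members. That ranking did not hold per length. As log2(TPM + 1) less the median of all genes, GAS5 stood at -0.93, ZFAS1 at -0.89 and SNHG8 at -0.12.

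The 3 members with the highest knockdown values were of low abundance. SNHG26, host of SNORD93, had 5.48 CPM in sh1088 and 15.1 CPM in sh1196, against 2.09 CPM in the sh control, from 17 counts (log2 fold change 2.30, SE 0.81, edgeR adjusted p = 0.828). SNHG4, which shares exons with MATR3 on the same strand, had 20.3 and 29.4 CPM, against 13.1 CPM in the sh control (0.93, SE 0.49). SNHG10, host of SCARNA13, had 11.3 and 11.2 CPM, against 6.52 CPM in the sh control (0.80, SE 0.54). Both hairpins were above the sh control in all 3. The remaining 8 members tested, given with their mean over the 5 libraries, were SNHG3 (50.0 CPM), SNHG12 (46.1 CPM), SNHG19 (37.6 CPM), SNHG15 (25.8 CPM), SNHG7 (25.7 CPM), SNHG21 (9.86 CPM), SNHG11 (8.74 CPM) and SNHG22 (8.57 CPM). Their knockdown log2 fold changes lay between -0.52 (SNHG22) and 0.23 (SNHG12).

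**Figure D3:**
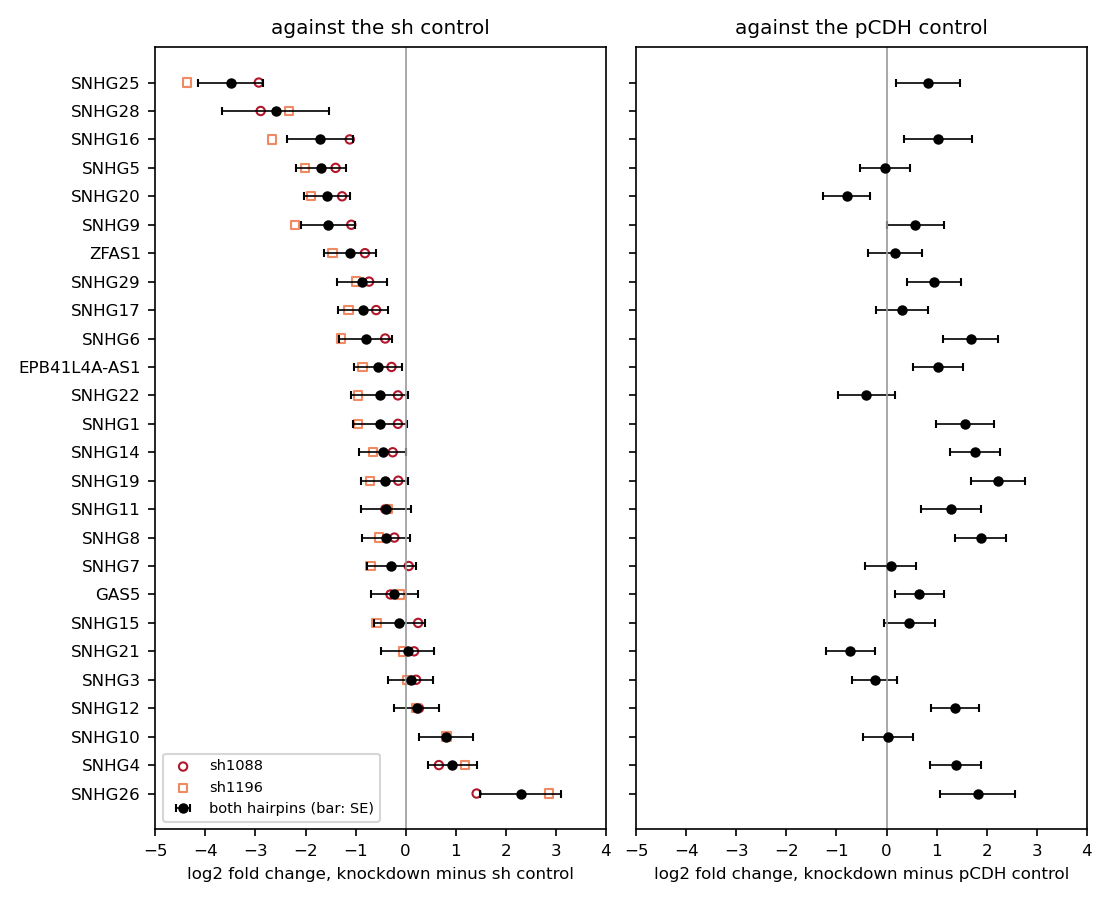
Log2 fold change of 26 members in RBMS1 knockdown minus the sh control (left) and minus the pCDH control (right, 25 members), both hairpins in 1 fit with bars for the SE, beside each hairpin alone. Left of 0 lie 20 members against the sh control, whereas 20 of 25 lie right of 0 against the pCDH control.

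The direction depended on the control library. Against the pCDH control, 20 of 25 members tested were above 0 in knockdown (51.9% of all 15508 genes), with a median log2 fold change of 0.83 where all genes had 0.05. edgeR called 0 of them at an adjusted p under 0.05, where it called 0.6% of genes, and 8 had an unadjusted p under 0.05, all higher, against 9.25% of genes. At least 2-fold higher were 11, against 18.1% of genes. Of the 25 members tested against both controls, 16 were below 0 against the sh control and above 0 against the pCDH control, and 2 were the reverse. Below 0 against both were 3, and above 0 against both were 4. These patterns were not counted over all genes, so how usual such a turn of sign is was not tested. SNHG25 stood at 0.83 (SE 0.64), SNHG16 at 1.03 (SE 0.68) and SNHG1 at 1.57 (SE 0.58) against the pCDH control. SNHG5 stood at -0.03 (SE 0.49) there, and SNHG20 at -0.80 (SE 0.47). SNHG26 (1.82, SE 0.75) and SNHG4 (1.38, SE 0.51) were above 0 against both controls. The pCDH control belongs to the overexpression pair, so in this comparison RBMS1 level and the type of control cannot be told apart.

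For RBMS1 overexpression and its pCDH control there was 1 library each, so no test was made, and each ratio is given with its exact 95% counting interval. Of the 24 members with a mean of at least 5 CPM in these libraries, 14 were above 0 and 10 below (52.4% of the 10841 genes at that level were above). The median log2 ratio was 0.12, where all genes had 0.06. At least 2-fold higher were 2 members, against 14.8% of genes, and at least 2-fold lower were 3, against 14%. The members thus split both ways, and the shares past 2-fold were near those of all genes or under them. The counting interval lay above 0 for 11 members (42.3% of all genes), below 0 for 9 (37.5%) and held 0 for 4 (20.2%), so an interval off 0 is no mark of the members.

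In scaled counts SNHG14 differed most, with 115 CPM in the overexpression library, against 20.7 CPM in the pCDH control, a log2 ratio of 2.47 (2.30 to 2.64). Per length the difference was far smaller: it had 6.94 TPM in the overexpression library, against 7.05 TPM in the pCDH control, or 0.69 as log2(TPM + 1) less the median of all genes. It was the one member of the 12 most abundant whose level was highest of all 5 libraries with overexpression. SNHG14 shares exons with SNRPN on the same strand, so some of its reads may be shared with that gene. RSEM's posterior SD of its count was 17.9 on 1351 counts with overexpression and 8.78 on 360 counts in the pCDH control. SNHG19, host of SNORD60, had 27.2 CPM against 9.73 CPM in the pCDH control (1.48, 1.21 to 1.76). SNHG8 had 41.3 CPM against 21.8 CPM in the pCDH control (0.92, 0.72 to 1.12), and SNHG6 had 42.0 CPM against 22.6 CPM (0.90, 0.70 to 1.09). SNHG1 stood at 0.61 (0.47 to 0.75), SNHG29 at 0.52 (0.43 to 0.62) and SNHG25 at 0.52 (0.32 to 0.72). These 7 hosts were higher with overexpression than in the pCDH control by more than counting error.

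At the other end, SNHG20, host of SCARNA16, had 16.2 CPM in the overexpression library, against 40.6 CPM in the pCDH control (log2 ratio -1.32, -1.56 to -1.09). SNHG7, host of SNORA17A and SNORA17B, had 12.3 CPM against 26.6 CPM in the pCDH control (-1.11, -1.39 to -0.84). SNHG21, host of SCARNA15, had 7.25 CPM against 15.1 CPM in the pCDH control (-1.07, -1.44 to -0.71). Exons of SNHG20 overlap those of SEC14L1 on the same strand, and exons of SNHG21 those of AC105339.2, so reads may be shared there. SNHG5 had 472 counts against 1222 counts in the pCDH control (-0.81, -0.97 to -0.66), ZFAS1 had 71.5 CPM against 121 CPM (-0.76, -0.88 to -0.65) and SNHG17 had 56.4 CPM against 85.0 CPM (-0.59, -0.73 to -0.46). These 6 were lower with overexpression by more than counting error. GAS5 had 62.9 CPM against 62.1 CPM in the pCDH control (0.02, -0.12 to 0.15), SNHG16 had 26.0 CPM against 24.2 CPM (0.10, -0.12 to 0.32) and EPB41L4A-AS1 had 31.1 CPM against 28.1 CPM (0.14, -0.06 to 0.34). Their intervals held 0, as did that of SNHG15 (-0.11, -0.36 to 0.13). Per length, as log2(TPM + 1) less the median of all genes, these values did not stay near 0: EPB41L4A-AS1 turned to -0.80, GAS5 stood at -0.45 and SNHG16 at 0.79. Of the 18 named members with an overexpression ratio, 8 lay outside their counting interval on this scale.

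**Figure D4:**
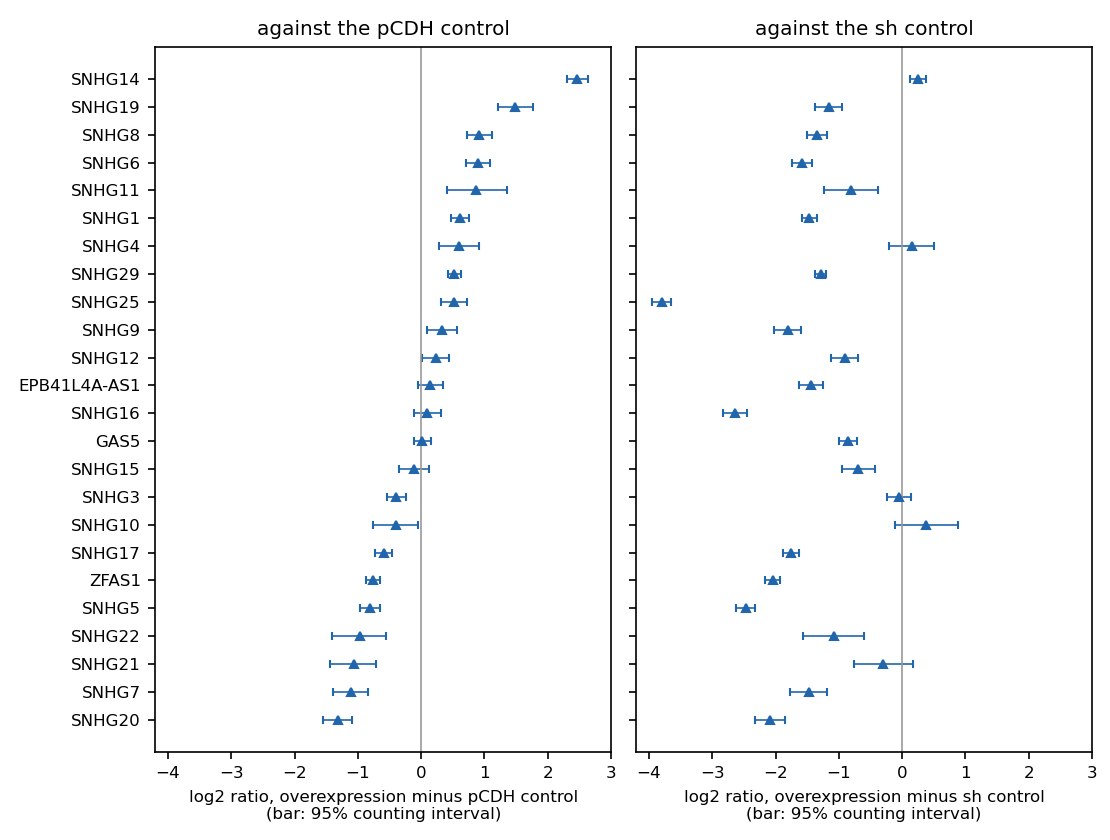
Log2 ratio of 24 members in the RBMS1 overexpression library minus the pCDH control (left) and minus the sh control (right), with bars for the 95% counting interval. Against the pCDH control 14 lie above 0 and 10 below, with SNHG14 at 2.47; against the sh control 21 of 24 lie below 0, with SNHG25 at -3.80.

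Set against the sh control, the overexpression library was below 0 for 21 of 24 members (45.7% of all genes) with a median log2 ratio of -1.32 where all genes had 0.08. At least 2-fold lower were 15 members, against 9.94% of genes. Of 201 other lncRNA genes at that level, 141 were below 0 and 72 were at least 2-fold lower, with a median of -0.62. SNHG25 stood at -3.80 (-3.95 to -3.65), SNHG16 at -2.64 (-2.82 to -2.46) and SNHG5 at -2.47 (-2.62 to -2.32). Both knockdown and overexpression were thus below the sh control for most members.

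When the RBMS1 level was coded -1, 0 and 1 over all 5 libraries with a term for the vector (2 residual degrees of freedom), 0 of 26 members were called by edgeR, where 0.00632% of 15827 genes were. The slope was above 0 for 18 members (51.1% of all genes), with a median of 0.44 log2 units per step where all genes had 0.02. At an unadjusted p under 0.05 there were 3 members, all with a slope above 0, where 6.61% of genes lay in either direction and 3.34% in that one. The highest slopes were those of SNHG25 (2.39, SE 0.79, edgeR adjusted p = 0.729), SNHG28 (1.53, SE 1.301) and SNHG14 (1.37, SE 0.52, edgeR adjusted p = 0.729). The lowest were those of SNHG26 (-0.96, SE 0.84), SNHG10 (-0.61, SE 0.43) and SNHG21 (-0.46, SE 0.45). SNHG25 was high in the sh control alone. DESeq2 called SNHG25 here too (0.348% of genes). Without the sh control library the median slope of the members was 0.14, and without sh1196 it was 0.19.

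The rule by symbol did not use which isoforms were seen. RSEM gives each gene a length that weights its isoforms by their estimated abundance, and this length does not depend on the scaling between libraries. It differed by at least 1.5-fold between libraries for 5 of the 25 members with a mean of at least 1 CPM (46.4% of all genes at that level) and by at least 2-fold for 3 (21.9% of genes). Length differences of these sizes were thus not particular to the members. GAS5 had 780 nt in sh1088 and 894 nt in sh1196, against 426 nt in the sh control, and 930.5 nt with overexpression, against 673 nt in the pCDH control. Its weighted length was therefore longer in each RBMS1 library than in its own control, while its scaled counts stood at -0.30 (sh1088) and -0.11 (sh1196) minus the sh control and at 0.02 for overexpression minus the pCDH control, on the log2 scale. Per length, as log2(TPM + 1) less the median of all genes, GAS5 stood at -0.93 for knockdown minus sh control and at -0.45 for overexpression minus pCDH control. EPB41L4A-AS1 had 937 and 896 nt, against 628 nt in the sh control, and 1795 nt with overexpression, against 893 nt in the pCDH control. SNHG14 had 7547 and 7431 nt, against 7675 nt in the sh control, and 10032 nt with overexpression, against 2899 nt in the pCDH control, so that its higher scaled count with overexpression came with a longer mix of isoforms. SNHG16 went the other way, with 1739 and 1461 nt, against 2009.5 nt in the sh control, and 1305 nt with overexpression, against 2045 nt in the pCDH control. SNHG25 stayed between 109 and 114 nt, near its shorter transcript of 106 nt. These lengths carry no error of their own in the files, and no test was made.

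**Figure D5:**
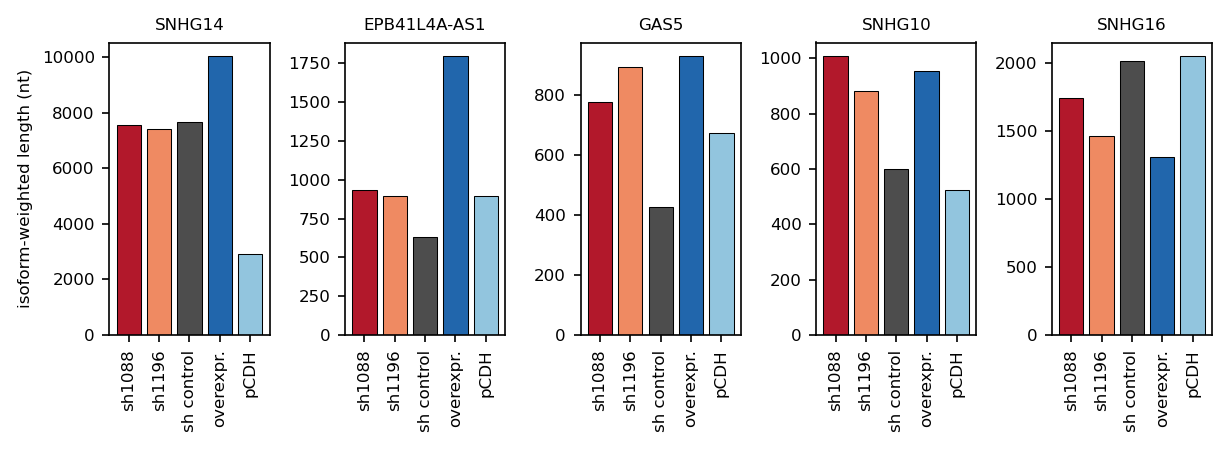
Isoform-weighted gene length by RSEM (nt) in each library for the 5 members with at least 1.5-fold between the longest and the shortest value. SNHG14 ranges from 2899 nt in the pCDH control to 10032 nt with overexpression, and GAS5 is shortest in the sh control at 426 nt.

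snoRNA loci lie inside 27 of the 28 members by the annotation used, and for 19 members at least one lies in an annotated exon of some isoform, where reads could be divided between host and snoRNA. Of the 27 hosts, 22 had a count on a snoRNA row. The 11 loci of GAS5 have no row of their own in the tables used, nor do 2 of 9 loci in SNHG1 and 1 of 2 in SNHG5, so no count could be recorded for them there. The summed snoRNA rows were below the host in all 5 libraries for 14 hosts and above it in all 5 for SNHG3, SNHG11 and SNHG20, genes named after their values were seen. SCARNA16, inside SNHG20, had 921 and 702 CPM in sh1088 and sh1196, against 1185 CPM in the sh control, and 657.5 CPM with overexpression, against 233 CPM in the pCDH control. SNHG20 itself had 27.9 and 18.2 CPM, against 69.0 CPM in the sh control, and 16.2 CPM with overexpression, against 40.6 CPM in the pCDH control. With overexpression the snoRNA row thus stood higher and its host lower than in the pCDH control. The 84 loci inside SNHG14 summed to 26.7 and 21.9 CPM, against 42.7 CPM in the sh control, and 11.1 CPM with overexpression, against 26.9 CPM in the pCDH control, where the host ran the opposite way. SNORD104 and a second locus inside SNHG25 summed to 10.4 and 12.6 CPM, against 7.03 CPM in the sh control, and 11.6 CPM with overexpression, against 17.8 CPM in the pCDH control. The sh control, where SNHG25 was highest, thus had the lowest level of these rows.

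Members with a snoRNA locus in an exon had a median knockdown log2 fold change of -0.52 (19 tested) and the others one of 0.04 (7 tested). The others were less abundant: in the sh control their median was 7.66 CPM (8 with a count), against 105 CPM for the 19. Against the pCDH control both medians were above 0, at 0.66 (19 tested) and 1.205 (6 tested). No test was made between these 2 kinds of member. Members with the C and pyrimidine run at their start had a median of -0.42 (5 tested), and the other members in the RefSeq table had -0.46 (17 tested). In overexpression minus pCDH control these medians were 0.23 and 0.02, and in knockdown minus pCDH control 1.37 and 0.80. Members were also split by a run within 10 bases of the start. With and without it, knockdown medians were -0.42 (13 tested) and -0.52 (9 tested) against the sh control. Against the pCDH control they were 1.29 (13 tested) and -0.10 (8 tested). In overexpression minus pCDH control they were 0.38 (12 members) and -0.40 (8 members). No test was made between these kinds of member. Both splits went by the RefSeq start alone. By GENCODE release 29, such a run also began transcripts of other members, such as GAS5 (6 of 29), SNHG29 (6 of 30) and SNHG16 (2 of 8). SNHG25 (2 of 2 transcripts) and SNHG6 (3 of 5) had no RefSeq start here and were left out. Neither split therefore cleanly separates hosts with pyrimidine starts from those without.

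Related genes were set beside the members from lists chosen by function. Of 49 protein-coding hosts of snoRNAs, all tested, 0 were called in knockdown by edgeR and 31 were below 0, with a median of -0.09. RPS20, a ribosomal protein gene, was lowest at -1.34 (SE 0.56) and RPL17 stood at -1.20 (SE 0.49). Of 79 cytosolic ribosomal protein genes, many of them with pyrimidine starts, 0 were called and 66 were below 0, with a median of -0.39. RPLP0, a stalk protein gene, stood at -1.28 (SE 0.46) and RPS18 at -1.20 (SE 0.47). Against the pCDH control this list too turned round, with 58 of 79 above 0 in knockdown (51.9% of all genes) and a median of 0.44. Of 18 snoRNP proteins and assembly factors 0 were called and 9 were below 0, with a median of 0.01. NOP10, an H/ACA core protein, stood at -1.22 (SE 0.58) and NOP58, a C/D core protein, at 0.83 (SE 0.50). Of 20 nonsense-mediated decay and exon junction factors 0 were called and 11 were below 0, with a median of -0.20. RBM8A, an exon junction subunit, stood at -1.76 (SE 0.50, edgeR adjusted p = 0.828) and SMG1 at -0.58 (SE 0.43). SMG6 (0.77, SE 0.55) and NBAS (0.82, SE 0.60) were above 0. MALAT1, NEAT1 and KCNQ1OT1, lncRNAs that stay in the nucleus, were all 3 above 0, with KCNQ1OT1 at 2.15 (SE 0.58, edgeR adjusted p = 0.828). MALAT1 (0.89, SE 0.98) and NEAT1 (0.10, SE 0.68) lay within 1 SE of 0. Against the pCDH control 2 of these 3 were above 0 and 1 below, with a median of 0.06.

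In the authors' deposited table for knockdown, 27 members had a log2 fold change, 20 of them below 0, with a median of -0.46 where all genes in it had 0.21. It gives an adjusted p under 0.05 to 7 members, where 539 of the 15560 genes with an adjusted p (3.46%) have one: SNHG25, SNHG16, SNHG20, SNHG5, SNHG9, ZFAS1 and SNHG26. Over the 26 members tested here, the authors' deposited knockdown values and those above had the same sign for 26. The authors' deposited table for overexpression gives 11 members an adjusted p under 0.05, where 4503 of the 17714 genes with an adjusted p (25.4%) have one, from what the labels describe as 1 library a group. There the authors' deposited values had the same sign as the ratios above for 21 of 26 members. Over the 10203 genes with at least 50 counts in both libraries, the authors' deposited overexpression value minus the ratio above had an SD of 0.27, against 0.000967 for knockdown, so the deposited overexpression values do not follow from these 2 libraries by a single scaling, and the cause was not tested. For ZFAS1 the authors' deposited table has 0.37, where the counts of the libraries (842 with overexpression, 2105 in the pCDH control) gave -0.76.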

How the data were processed

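Values per gene in the deposited tables are RSEM's expected count, TPM and FPKM, per the file headers, made by the authors. Tools named in the submitters' processing notes are Bowtie, DESeq2, RSEM 1.3.1 and STAR 2.4.2, without roles. Genome build, annotation and strand setting: not given in the sources used here. Comparison tables deposited by the authors hold log2 fold changes and p-values.

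Expected counts were rounded to whole numbers. Knockdown (2 libraries) against the sh control (1) and the coded RBMS1 level (5 libraries, vector as covariate) were fitted with edgeR 4.0.16 in R 4.3.3: quasi-likelihood test, TMM, filterByExpr, Benjamini-Hochberg adjustment over all genes tested at 0.05. The knockdown fit has 1 residual degree of freedom, from the hairpin libraries, whose spread also stands for that of the single control. Overexpression ratios of TMM-scaled counts (mean CPM of at least 5) have exact conditional 95% intervals and no test. The fits were run on simulated counts with the same dispersion for every gene, as a check that known fold changes were recovered. That check does not cover the spread or make-up of the real libraries, nor the p-values from them. DESeq2 1.42.0 and limma-voom (limma 3.58.1) were alternatives. Coordinates come from GENCODE release 29, which matched all 28 members (58656 of 58929 identifiers), and start sequences from RefSeq (GRCh38.p14). The members, lists and tests were chosen with earlier results of these data known.

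Named by rule were RBMS1, the 12 members of highest mean scaled CPM, the 3 highest and 3 lowest in each comparison, and up to 4 members of each list by smallest knockdown p. Reads of 7 members with same-strand exon overlap, and of 14 with antisense overlap, may be shared with another gene. RSEM's posterior SD of a member's count was at most 20.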

Additional observations from a re-analysis of the deposited data

How the results depend on the processing

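The knockdown median of the members (-0.49) depended most on the control: it was 0.83 with the pCDH control. Unscaled it was -0.0023 by library size only, where all genes had 0.62, 0.46 by log2(TPM + 1), where all genes had 0.78, 0.54 by log2(TPM + 0.1), where all genes had 1.16, and -0.055 by log2(FPKM + 1), where all genes had 0.51; the members stayed below all genes in each. It was 0.044 over the 7 members with no snoRNA locus in an exon. Calls in knockdown were 1 (SNHG25) by DESeq2 and 1 with no filter, and with 1 hairpin left out, where no test could be made, 7 (without sh1196, where 17.8% of all genes were) to 11 (without sh1088, where 32% were) members were at least 2-fold changed. The overexpression median (0.12) was -1.32 with the sh control, with 15 members at least 2-fold changed in place of 5, and -0.80 by log2(TPM + 1), -0.83 by log2(TPM + 0.1) and -0.29 by log2(FPKM + 1), where all genes had -0.71, -0.80 and -0.25. The median level slope (0.44) was 0.069 by library size only, where all genes had -0.37, and 0.14 to 0.49 when a library was left out. SNHG25 was the 1 member called for the slope by DESeq2, where 55 genes were called over all. It was also the 1 member called with no filter, where 89 genes were, against 1 gene in the main fit. Per 100 counts of nuclear protein-coding genes the members had 0.327 and 0.225 in sh1088 and sh1196, against 0.528 in the sh control, and 0.173 with overexpression, against 0.165 in the pCDH control. Without SNHG25, a choice made after seeing the data, their share of all counts was 0.133% and 0.146%, against 0.167% in the sh control, and 0.104%, against 0.107% in the pCDH control. The cause was not tested in any of these.

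With the pCDH control, 14 named members turned sign in knockdown: SNHG29 to 0.95, ZFAS1 to 0.17, SNHG1 to 1.57, SNHG25 to 0.83, SNHG17 to 0.31, GAS5 to 0.66, SNHG14 to 1.77, SNHG6 to 1.68, SNHG8 to 1.88, SNHG16 to 1.03, EPB41L4A-AS1 to 1.03, SNHG7 to 0.081, SNHG19 to 2.23 and SNHG21 to -0.72. SNHG21, near 0, also stood at -0.049 by library size only and -0.015 by log2(TPM + 0.1), both less the median of all genes, and at -0.053 to 0.17 with 1 hairpin left out, as SNHG7 did at -0.70 to 0.063. Per length (TPM or FPKM, less the median of all genes) 8 to 9 of 18 named overexpression ratios moved past their counting interval, such as SNHG14 (0.69 to 0.78), EPB41L4A-AS1 (-0.80 to -0.77) and SNHG16 (0.79 to 0.88). SNHG19 with overexpression stood at -1.16 against the sh control. No paired analysis was possible because the sh and pCDH controls have 1 library each and the labels give no shared replicate numbers.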
